A study of Mus musculus with 2 samples.

Results

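The enzymes described here modify collagen inside the cell and crosslink it outside, and they were followed in single-cell RNA profiles of mouse kidney stroma. They are 10 of the 53698 gene entries in the matrices, taken by symbol: the lysyl oxidases Lox, Loxl1, Loxl2 and Loxl3, the lysyl hydroxylases Plod1, Plod2 and Plod3, and the catalytic subunits of prolyl 4-hydroxylase P4ha1, P4ha2 and P4ha3. Kidney cells of FVBN mice positive for PDGFRa and PDGFRb, receptors carried by fibroblasts and pericytes, were profiled with 10x Chromium version 2 chemistry, which reads the 3′ end of transcripts and counts unique molecular identifiers (UMIs). There was 1 library labelled sham and 1 from a kidney labelled as taken 10 days after unilateral ureteral obstruction (UUO), an operation used as a model of kidney fibrosis. The number and sex of the animals behind each library are not given in the labels. Each label thus has 1 library and the labels could not be compared by a test, and every interval given is a 95% interval for counting error only.

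Collagen chains are hydroxylated on proline and lysine in the endoplasmic reticulum by enzymes that need iron and ascorbate. Prolyl 4-hydroxylation lets the triple helix stay folded at body temperature, and lysyl hydroxylation provides sites for sugars and sets the chemistry of the later crosslinks. After secretion, the copper enzymes of the lysyl oxidase family oxidise lysine and hydroxylysine, and the resulting aldehydes join neighbouring molecules in collagen and elastin. In kidney fibrosis these enzymes are known mainly from interstitial fibroblasts and myofibroblasts.

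The deposited matrices summed to 85359332 UMIs over 10812 barcodes for the library labelled sham and 6023072 UMIs over 1291 barcodes for the library labelled UUO. After filters 10656 and 1052 cells remained, and 13 of their barcodes occurred in both libraries. Cells were put into classes by their UMIs of marker genes, and the fibroblast class held 8419 cells (79.0%) and 710 cells (67.5%). Fibroblasts together with pericytes or smooth muscle cells are called stromal cells below, 8448 and 733 of them, with median depths of 8603.5 and 5284 UMIs. All 8 fibroblast markers were detected in the stromal cells of both libraries, but their levels differed. They summed to 5168 CPM (counts per 1000000 UMIs of the cells summed) labelled sham and 17939 CPM labelled UUO. Lum was seen in 33.5% of fibroblasts labelled sham and 79.3% labelled UUO, and Meg3 in 5.37% and 45.1%. Pdgfra, Mfap4, Sfrp1 and Tcf21 were seen in a smaller share labelled UUO, where depth was lower. Despite the sort, each library also held endothelial cells (363 and 67) and proximal tubule cells (22 and 89), and the library labelled sham held 365 macrophages or dendritic cells. In the stromal sums the 8 proximal tubule markers came to 23.9 CPM labelled sham and 907 CPM labelled UUO, and 5 erythroid markers to 18.3 and 351 CPM. The part of this RNA in the differences between libraries was not tested. Transcripts of the fibrillar collagen list came to 9267 CPM labelled sham and 4785 CPM labelled UUO, 1.94-fold higher (1.91 to 1.96) in the library labelled sham. Collagen transcripts are known to rise in kidney fibrosis, so this value runs against the labels, and directions are given by library label and not as an effect of obstruction.

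Lox and P4ha3 were the members that stood far apart between the libraries, and both were higher in the stromal cells labelled sham. These were 2 of the 10 members at least 2-fold apart once 5 CPM had been added to each level. The same held for 17% of the 9688 genes at 10 CPM or more. Split by side, 4.56% of these genes passed 2-fold toward sham and 12.5% toward UUO. Over the 10 members the log2 ratio of UUO to sham, as labelled, had a median of -0.40 and over all genes one of 0.00.

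Lox, the founding lysyl oxidase (chr18:52516067-52529867, minus strand, GRCm38), gave 18569 UMIs or 254 CPM (250 to 258) in the stromal cells labelled sham. In those labelled UUO it gave 258 UMIs or 56.5 CPM (49.8 to 63.8). The level was 4.50-fold higher (3.98 to 5.10) in the library labelled sham. An antisense gene, AC161119.1, overlaps Lox, and no value here separates reads of the pair beyond the authors' assignment. The Lox identifier in the matrices is 1 version older than the GENCODE M21 entry whose place is given.

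Loxl1, which acts mainly on elastin (chr9:58287738-58313186, minus strand), was close between libraries at 305 CPM (301 to 309) labelled sham and 333 CPM (317 to 350) labelled UUO. It was thus 1.09-fold higher (1.04 to 1.15) in the library labelled UUO. Loxl2, which crosslinks the collagen IV of basement membranes (chr14:69609068-69695834, plus strand), had 132 and 82.9 CPM, 1.59-fold higher (1.43 to 1.76) in the library labelled sham. For Loxl2, 11.2% of its UMIs labelled sham and 21.7% of those labelled UUO lay in values that were not whole. Such values hold UMIs shared with other genes. All UMIs of each such value are counted here, so the shared part can be smaller. The level of Loxl2 is thus less certain than that of the others. Loxl3 (chr6:83034173-83052562, plus strand), a lysyl oxidase that overlaps the antisense gene Htra2, had 47.2 and 35.0 CPM, 1.35-fold higher (1.15 to 1.59) in the library labelled sham. The make-up of the family therefore differed between libraries. Of the family's UMIs, Lox gave 34.4% (34.0 to 34.8) in the library labelled sham against 11.1% (9.87 to 12.5) labelled UUO. For Loxl1 the shares were 41.3% (40.9 to 41.8) and 65.6% (63.7 to 67.6). Shares of UMIs also depend on how well the 3′ end of each gene is captured, so only the same gene is compared here.

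In the summed counts the 3 lysyl hydroxylases were all somewhat higher in the library labelled sham, by similar factors. Plod1, which hydroxylates lysines of the triple helix (chr4:147909753-147936767, minus strand), had 81.6 CPM labelled sham and 56.0 CPM labelled UUO, a ratio of 1.46 (1.29 to 1.66). Plod2, the telopeptide lysyl hydroxylase whose product gives the more stable crosslinks of fibrotic tissue (chr9:92542223-92608428, plus strand), had 47.1 and 36.3 CPM, a ratio of 1.30 (1.11 to 1.52). Plod3, which also transfers sugars onto hydroxylysine (chr5:136987019-136996648, plus strand, overlapped by the antisense gene Znhit1), had 65.1 and 47.3 CPM, a ratio of 1.38 (1.20 to 1.59). None reached 2-fold, and the intervals of each gene's share in the family's UMIs overlapped between the libraries. Plod2, for example, gave 24.3% (23.6 to 25.0) of them labelled sham and 26.0% (22.7 to 29.6) labelled UUO.

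The catalytic subunits of prolyl 4-hydroxylase did not go together. P4ha1, the main subunit in most tissues (chr10:59323296-59373304, plus strand), had 66.4 CPM (64.5 to 68.3) labelled sham and 86.4 CPM (78.1 to 95.4) labelled UUO, 1.30-fold higher (1.17 to 1.44) in the latter. P4ha2 (chr11:54100095-54131665, plus strand), an alternative subunit, had 58.3 and 51.4 CPM, and the interval of its ratio, 1.13 (0.995 to 1.30) toward sham, held 1. P4ha3, a further alternative subunit (chr7:100285520-100319699, plus strand), had 1410 UMIs or 19.3 CPM (18.3 to 20.3) labelled sham. In the library labelled UUO it had 3 UMIs in 2 of 733 stromal cells, or 0.656 CPM (0.135 to 1.92). The ratio was 29.4 with a counting interval from 10.03 to 143. Of the UMIs of the 3 subunits, P4ha3 gave 13.4% (12.7 to 14.1) labelled sham against 0.474% (0.0978 to 1.38) labelled UUO. For P4ha1 the shares were 46.1% (45.1 to 47.1) and 62.4% (58.5 to 66.2).

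Since P4ha1 and P4ha3 lay on opposite sides between the libraries, the promoters of the 3 subunits are shown, as the 250 bases before the RefSeq start of each gene (GRCm38.p6, plus strand). The window of P4ha2 lies inside the span given above for that gene, whose start there is further upstream. Capitals mark ACGTG and GCGTG on either strand (CACGT and CACGC when read on the strand shown), the core letters that hypoxia-inducible factors bind, as background.
P4ha1, chr10:59323046-59323295: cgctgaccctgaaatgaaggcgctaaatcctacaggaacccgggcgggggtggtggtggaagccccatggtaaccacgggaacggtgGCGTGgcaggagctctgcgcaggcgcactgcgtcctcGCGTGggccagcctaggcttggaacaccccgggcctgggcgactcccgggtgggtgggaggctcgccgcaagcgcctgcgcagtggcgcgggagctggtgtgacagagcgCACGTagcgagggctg
P4ha2, chr11:54100674-54100923: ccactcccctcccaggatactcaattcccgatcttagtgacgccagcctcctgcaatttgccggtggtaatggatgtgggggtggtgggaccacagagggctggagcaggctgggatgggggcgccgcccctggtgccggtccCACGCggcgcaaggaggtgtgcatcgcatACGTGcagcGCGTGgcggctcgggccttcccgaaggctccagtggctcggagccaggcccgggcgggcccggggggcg
P4ha3, chr7:100285270-100285519: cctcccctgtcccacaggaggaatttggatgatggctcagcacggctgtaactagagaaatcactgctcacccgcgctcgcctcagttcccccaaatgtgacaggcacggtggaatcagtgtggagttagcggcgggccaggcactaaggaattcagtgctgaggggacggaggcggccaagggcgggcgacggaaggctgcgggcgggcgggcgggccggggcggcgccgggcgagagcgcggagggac
Both cores were present before P4ha1 and P4ha2, and neither was present in the window before P4ha3. Of 32536 windows of this length before RefSeq genes, 16.7% held ACGTG and 28.3% held GCGTG on either strand, and no match shown overlaps another. The letters GGGCGG, the core of the GC box, occurred 5 times on the 2 strands before P4ha3, 1 time before P4ha1 and 2 times before P4ha2, and in 33.0% of all windows at least 1 time. The window of P4ha3 was 67.2% G or C and that of P4ha1 69.6%, against a median of 52.4%. A match is a description of the letters, and its part in the values was not tested. Promoter windows of Plod1 and Plod3 were also matched. The window of Plod3 held both cores and that of Plod1 held GCGTG, and both genes were higher in the library labelled sham. Windows of the other 5 members were not used here.

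**Figure D1:**
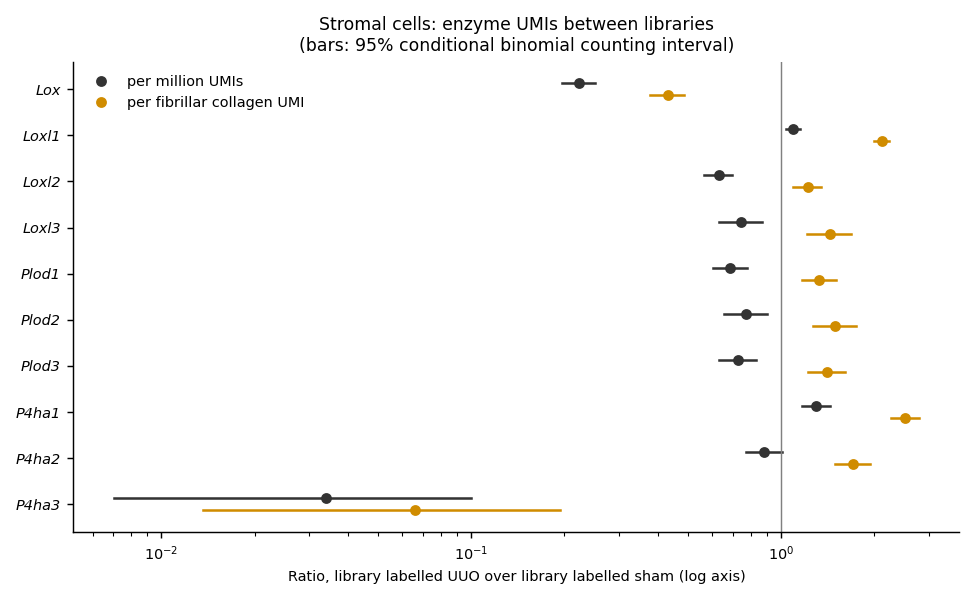
Ratio of UMIs in stromal cells, library labelled UUO over library labelled sham, for each enzyme on a log axis. Black points are of CPM, yellow points per fibrillar collagen UMI, and bars are 95% conditional binomial counting intervals from 1 library per label. Lox and P4ha3 lie left of 1 on both scales. The other 8 lie right of 1 when set against collagen, whose sum was 1.94-fold higher labelled sham.

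Set against their substrate, whose sum was 1.94-fold higher labelled sham, 6 of the 10 enzymes changed sides. For all 10 members the count per 1000 fibrillar collagen UMIs was 116 (115 to 117) in the stromal cells labelled sham and 164 (158 to 170) in those labelled UUO, 1.41-fold more (1.37 to 1.46) in the latter. P4ha1 went from 7.16 to 18.1 per 1000, 2.52-fold more (2.27 to 2.79) in the library labelled UUO. Loxl1 went from 32.9 to 69.6, or 2.11-fold (2.01 to 2.23). The 8 members other than Lox and P4ha3 were higher per collagen UMI in the library labelled UUO, from 1.22-fold for Loxl2 up to 2.52-fold. Lox kept its side at 27.4 per 1000 labelled sham against 11.8 labelled UUO, a factor of 2.32 (2.05 to 2.64), and P4ha3 had 2.08 against 0.137. By family, the lysyl oxidases had 79.6 and 106 per 1000, the lysyl hydroxylases 20.9 and 29.2, and the prolyl 4-hydroxylase subunits 15.5 and 28.9. The collagen sum differed 1.94-fold between the libraries, so this scale carries that difference in every ratio. Any gene less than 1.94-fold higher labelled sham comes out higher per collagen UMI labelled UUO. The median log2 ratio over all genes was 0.00 (5 CPM added), so a typical gene would also do so. The share of all genes on each side of this scale was not counted, and these counts are not read as particular to the enzymes.

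Among cell classes, fibroblasts held the highest level of most of these enzymes. In the library labelled sham 9 of 10 members were highest in fibroblasts among 7 classes of at least 20 cells, against 9.22% of 13247 genes. For UUO, 7 of 10 were highest in fibroblasts among 4 classes, against 18.7% of 11992 genes. P4ha3 is 1 of these 7 and rested on 3 UMIs (0.677 CPM) in fibroblasts. The other classes held far fewer UMIs and none of P4ha3, so its place was largely set by class size. Classes other than fibroblasts are small, and many neighbours in the order do not differ beyond their intervals.

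Plod1 was the exception in both libraries. It was highest in endothelial cells, at 132 CPM (115 to 151) labelled sham against 81.8 CPM (79.7 to 83.9) in fibroblasts. Labelled UUO it was at 77.6 CPM (50.7 to 114) in endothelial cells and 57.3 CPM (50.5 to 64.8) in fibroblasts, which overlap. Loxl2 in pericytes or smooth muscle cells was not apart from fibroblasts beyond the intervals, with 106 CPM (65.7 to 162) against 132 CPM labelled sham and 88.3 CPM (45.6 to 154) against 82.8 CPM labelled UUO. Plod2 labelled UUO rested on 10 UMIs in 23 pericytes or smooth muscle cells, 73.6 CPM (35.3 to 135), beside 35.2 CPM in fibroblasts. P4ha1 labelled UUO was at 71.7 CPM (45.9 to 107) in endothelial cells, not apart from the 87.1 CPM (78.6 to 96.2) of fibroblasts.

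In the library labelled sham Lox stepped down sharply from fibroblasts to every other class. It went from 254 CPM in fibroblasts to 77.8 CPM (66.3 to 90.7) in macrophages or dendritic cells, 61.2 CPM in endothelial cells and 27.6 CPM in loop, distal tubule or collecting duct cells. Free RNA in the droplets was not measured, and its part in the levels of the other classes was not tested. Per 1000 fibrillar collagen UMIs, Lox was at 27.4 (27.0 to 27.8) in fibroblasts, 29.5 (25.1 to 34.5) in macrophages or dendritic cells and 27.3 in loop, distal tubule or collecting duct cells, and at 38.9 (31.5 to 47.6) in endothelial cells. Other members were higher on this scale outside fibroblasts. Plod1 had 83.8 (72.5 to 96.5) in endothelial cells and 8.81 (8.58 to 9.04) in fibroblasts. P4ha1 had 7.15 in fibroblasts, 15.4 (12.3 to 19.1) in macrophages or dendritic cells, 25.0 (19.2 to 32.1) in endothelial cells and 16.0 (10.2 to 23.9) in loop, distal tubule or collecting duct cells. Loxl1 had 32.9, 45.1, 43.3 and 42.6 in the same order. Loxl2 was at 26.2 in endothelial cells and 14.2 in fibroblasts, and Plod2 at 17.3 (11.3 to 25.5) in loop, distal tubule or collecting duct cells and 5.08 in fibroblasts. P4ha3 was near the fibroblast ratio of 2.08 in macrophages or dendritic cells, at 2.72 (1.52 to 4.48), and its endothelial value of 3.97 (1.90 to 7.32) rested on 10 UMIs. The cells that met no class, 1252 labelled sham with a median of 2373.5 UMIs and 132 labelled UUO with 1220.5, had Lox at 122 and 38.2 CPM and Loxl1 at 169 and 296 CPM.

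**Figure D2:**
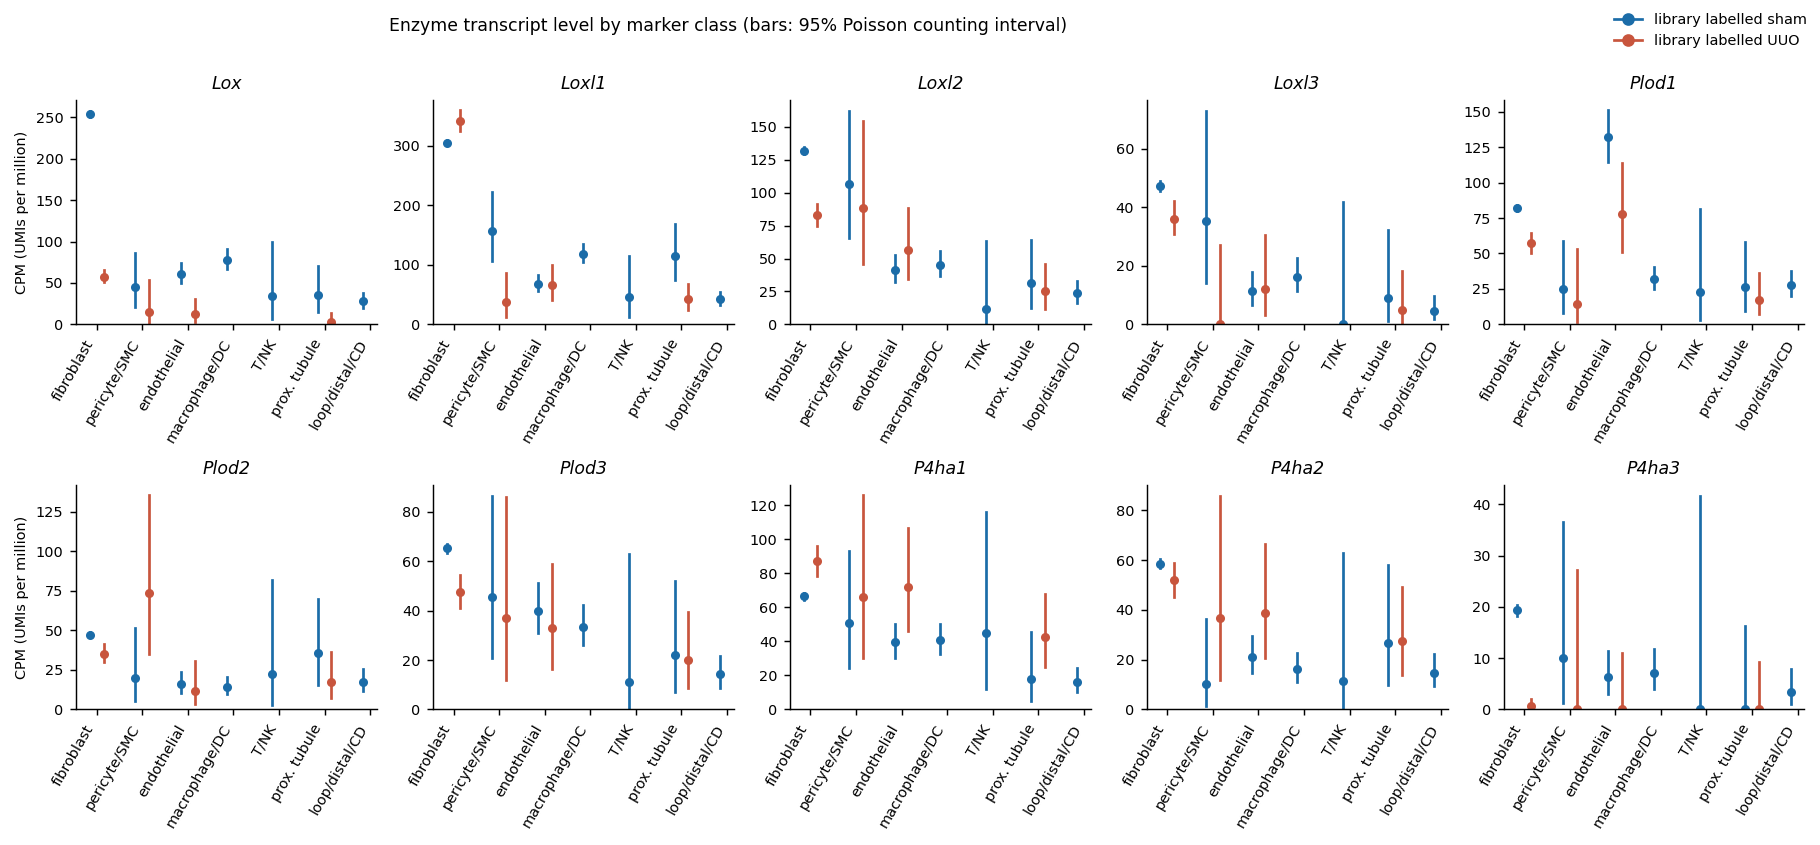
Level of each enzyme (CPM, linear axis from 0) in each marker class of at least 20 cells, blue for the library labelled sham and red for the library labelled UUO. SMC is smooth muscle cell, DC dendritic cell and CD collecting duct, and bars are 95% Poisson counting intervals. Fibroblasts stand highest for most genes, and Plod1 stands highest in endothelial cells.

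Shares of cells with at least 1 UMI were compared after every cell had been thinned to 1000 UMIs, which left out 74 and 35 shallower stromal cells. Lox was then seen in 21.2% (20.4 to 22.1) of sham-labelled stromal cells against 6.73% (4.99 to 8.85) of UUO-labelled stromal cells. Endothelial cells labelled sham had a Lox UMI in 4.64% (2.67 to 7.42), at a median depth of 3855 UMIs before thinning, and no class here is known to lack Lox. Before thinning 71.4% and 23.7% of stromal cells had a Lox UMI. Loxl1 was seen in 26.4% (25.4 to 27.3) and 27.5% (24.2 to 31.0) of thinned stromal cells, and these intervals overlap. P4ha1 was seen in 6.71% (6.18 to 7.27) and 7.31% (5.49 to 9.50), shares whose intervals overlap. P4ha3 was seen in 1.74% (1.47 to 2.05) and 0.143% (0.00363 to 0.796), beside 0.870% (0.180 to 2.52) in endothelial cells labelled sham, which overlaps the sham stromal share at this depth.

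Within the library labelled sham, stromal cells with more collagen transcript also held more of these enzymes. Cells were ranked by their fibrillar collagen UMIs as a share of all UMIs and put into 5 equal bins, and each enzyme was measured as CPM over the UMIs outside that list. Collagen rose from 3790 CPM in the lowest bin to 18470 CPM in the top bin. From the lowest to the top bin 7 of 10 members gained at least 1.5-fold (5 CPM added), against 5.41% of 8961 genes, and none was as much lower, against 2.89%. The median log2 ratio was 0.76 over the members and 0.02 over all genes.

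The steepest members were P4ha3, Plod2 and Lox. P4ha3 had 6.97, 10.9, 18.5, 23.9 and 37.3 CPM from the lowest to the top bin, 5.35-fold (4.25 to 6.80). Plod2 had 25.1, 31.7, 43.8, 49.8 and 89.9, with its largest step into the top bin, 3.58-fold in all (3.16 to 4.07). Lox rose at every step, from 158 through 205, 246 and 291 to 381, or 2.41-fold (2.28 to 2.54). Loxl3 and Loxl2 followed with 1.93-fold (1.72 to 2.16) and 1.87-fold (1.74 to 2.01). P4ha2 reached 1.63-fold (1.48 to 1.81) and Loxl1 1.52-fold (1.46 to 1.59). The flattest were Plod3 at 1.39-fold, P4ha1 at 1.34-fold (1.22 to 1.47) and Plod1 at 1.23-fold (1.13 to 1.33). The alternative subunit P4ha3 and the main subunit P4ha1 thus lay near opposite ends of the order. The top bin was the shallowest, with a median of 6151 UMIs per cell against 7214 to 9875 in the others.

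Bins labelled UUO rest on fewer cells. Of the 9 members past the level filter there, 2 gained at least 1.5-fold by the top bin (5 CPM added), Lox and Loxl3, against 12.4% of 10997 genes, and none was as much lower, against 26.5%. The median log2 ratio was 0.23 over these 9 members and -0.22 over all genes. Lox went from 33.5 to 68.1 CPM, 2.03-fold (1.25 to 3.41), and Loxl3 from 27.7 to 53.3, 1.92-fold (1.12 to 3.43). P4ha1 went from 70.0 to 107, 1.52-fold (1.07 to 2.19). Plod2 had 54.0 in the lowest and 40.4 in the top bin, 0.750-fold (0.469 to 1.20), and Plod1 75.8 and 51.3, 0.676-fold (0.452 to 1.01), and both intervals hold 1. P4ha3 had no UMI in the lowest or in the top bin. The lowest bin here had 627 CPM of fibrillar collagen, 146 or 147 cells made up each bin, and median depths ran from 3501 UMIs in the lowest to 6868.5. With cells thinned to 1000 UMIs first, the log2 values of Lox and Loxl3 were 0.36 and 0.03 and those of P4ha1 and P4ha2 were 0.86 and 0.79, so which members passed depended on this step. The difference in slope between the libraries was not tested.

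**Figure D3:**
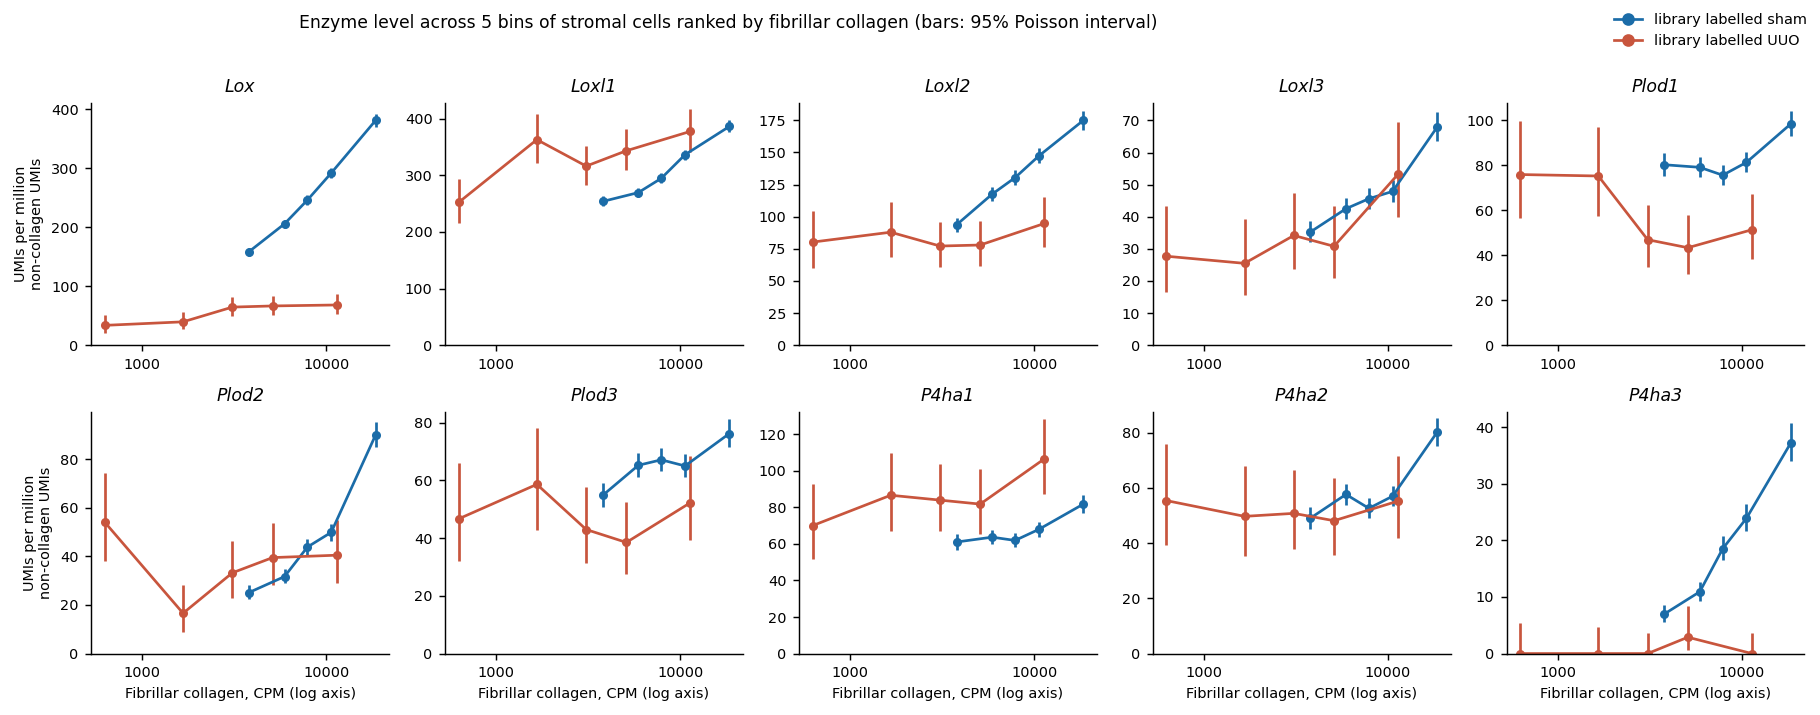
Enzyme level (CPM over non-collagen UMIs, linear axis from 0) in 5 bins of stromal cells ranked by fibrillar collagen, whose level in CPM is on the log horizontal axis. Blue is the library labelled sham, red the library labelled UUO, and bars are 95% Poisson counting intervals. In the library labelled sham P4ha3, Plod2 and Lox rise most steeply, and in the library labelled UUO Lox is at 33.5 to 68.1.

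Per cell, the rank correlation between an enzyme's share and the collagen share ran from 0.06 (Plod1) to 0.26 (Lox) over 8448 stromal cells labelled sham and from -0.05 (Plod1) to 0.16 (P4ha1) over 733 labelled UUO. Both quantities come from the same cells and share their depth, and counts this sparse make weak correlations uninformative.

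Fibroblasts also differed among themselves. Cells were taken where they lay in the top 10% by UMI share of a small marker set and also had at least 2 of its genes detected. The second condition left 55 to 841 of the 8419 fibroblasts labelled sham in the sets named here. These sets overlap, and they are ranges of a score and not cell types. In the library labelled sham, Plod2 was at 124 CPM in the 209 fibroblasts highest for Ptx3, C3 and Sfrp4 against 44.7 CPM in the other fibroblasts, 2.79-fold (2.46 to 3.15). It was at 138 CPM in the 55 cells highest for Clec3b, Inmt and Fmo2, 2.96-fold (2.31 to 3.75). Fibrillar collagen was 2.07-fold and 2.15-fold higher in the same cells, and Lox 1.58-fold and 1.26-fold, while Plod1 was lower at 0.766-fold (0.644 to 0.903) and 0.616-fold (0.402 to 0.903). The lysyl hydroxylases Plod1 and Plod2 therefore went in opposite directions between these cells and the rest.

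The 563 cells highest for Clca3a1 and Agtr1a, a receptor of angiotensin II, were at the other end. There P4ha3 was at 5.38 CPM against 20.1, 0.268-fold (0.165 to 0.411), Plod2 at 21.8 against 48.6, 0.449-fold (0.357 to 0.556), and Lox at 138 against 261, 0.531-fold (0.486 to 0.578). Fibrillar collagen was 0.584-fold, and Plod1 was 1.25-fold (1.12 to 1.38). P4ha2 stood out in the 479 cells highest for Nppc, Gpm6a and Alx1, with 97.5 CPM against 56.0, 1.74-fold (1.57 to 1.92). In the 841 cells highest for the contractile genes Acta2, Tagln and Myl9, P4ha3 was at 26.8 CPM against 18.3, 1.47-fold (1.27 to 1.69), and Plod2 was 1.22-fold. In the 725 cells highest for Npr3, Serpine2 and Nkd2, Plod2 was 0.655-fold (0.569 to 0.751) and Lox 0.747-fold.

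In the library labelled UUO the sets of at least 50 cells held 63 to 71 cells. In the 71 fibroblasts highest for Igfbp3, Adamts5 and Fbln5, Plod1 was at 117 CPM against 52.2, 2.25-fold (1.57 to 3.15), and Loxl1 at 529 against 326, 1.62-fold (1.38 to 1.89), while fibrillar collagen was 0.362-fold. Plod2 there rested on 5 UMIs, at 0.386-fold (0.124 to 0.922). The same set labelled sham, 683 cells, gave Plod1 at 1.10-fold (0.992 to 1.22), an interval that holds 1. It gave Loxl1 at 1.29-fold (1.23 to 1.35), Plod2 at 0.731-fold (0.619 to 0.858) and fibrillar collagen at 0.781-fold. In the 71 cells highest for Acta2, Tagln and Myl9, Plod2 was 0.425-fold (0.168 to 0.897) on 7 UMIs, where the same set labelled sham gave 1.22-fold (1.10 to 1.34). The 63 cells highest for Ptx3, C3 and Sfrp4 had Plod2 at 1.29-fold (0.788 to 2.01), an interval that holds 1 and lies below that of the library labelled sham. The 68 cells highest for Clec3b, Inmt and Fmo2 had it at 0.679-fold (0.353 to 1.20) on 13 UMIs, on the other side of 1 from the 2.96-fold labelled sham, with an interval that holds 1. The differences between libraries in these ratios were not tested.

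**Figure D4:**
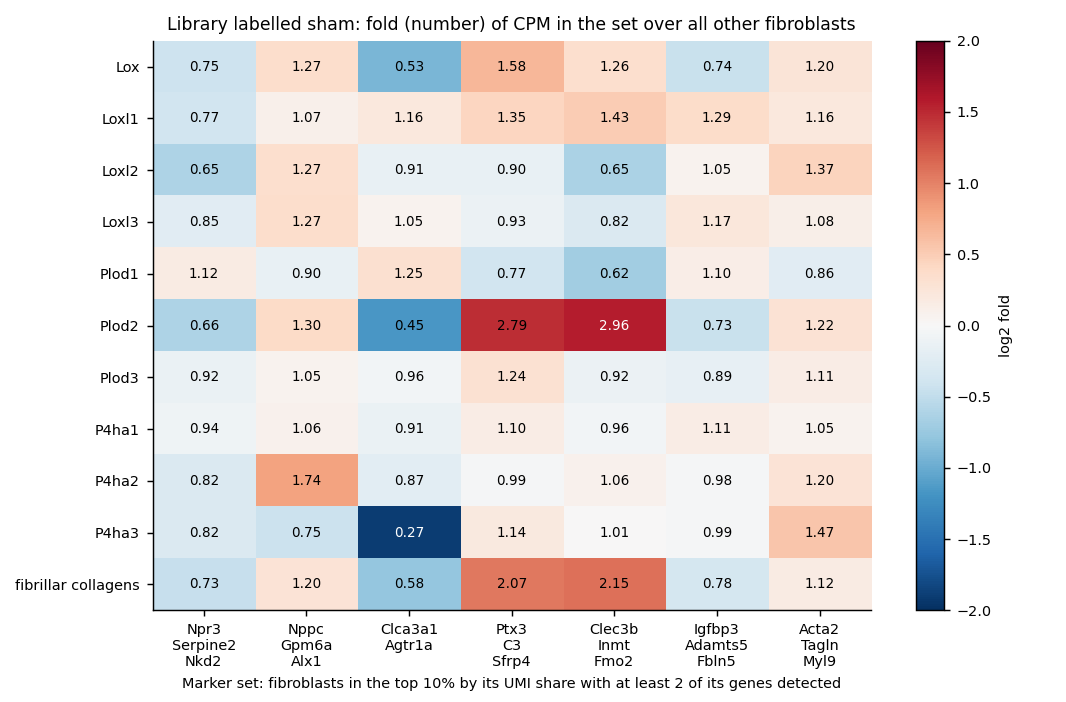
Fold of CPM in the fibroblasts of each marker set (in the top 10% by its UMI share, with at least 2 of its genes detected) over all other fibroblasts, library labelled sham, for each enzyme and for the fibrillar collagen list. Numbers are folds and colours their log2 (red higher, blue lower). Plod2 reads 2.79 and 2.96 in the sets of Ptx3 and Clec3b, and P4ha3 reads 0.27 in the set of Clca3a1.

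Cells with Xist UMIs and no Y-linked UMIs, and the reverse, occurred in both libraries, 4942 and 1405 of the stromal cells labelled sham and 209 and 218 of those labelled UUO. A further 1096 and 66 cells held both. The library difference of Lox was as large in each kind: 255 against 59.3 CPM in cells with Xist only, 4.30-fold (3.46 to 5.42) higher labelled sham, and 247 against 43.1 CPM in cells with Y-linked UMIs only, 5.73-fold (4.51 to 7.38). P4ha3 had 21.5 CPM against 1.47 CPM (2 UMIs) in the first kind, and in the second 14.5 CPM against no UMI. The counting interval of that last ratio starts at 6.25-fold, and with 3 UMIs set for the library labelled UUO the ratio was 7.76. Within the library labelled sham P4ha3 was 1.48-fold higher (1.26 to 1.74) in cells with Xist only than in cells with Y-linked UMIs only.

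Plod2 and P4ha2 were the members whose library ratio lay on different sides of 1 in the 2 kinds of cell. With Xist only Plod2 was at 50.4 CPM labelled sham and 63.7 CPM labelled UUO, 1.27-fold higher (1.01 to 1.57) labelled UUO. With Y-linked UMIs only it was at 39.5 and 21.9 CPM, 1.81-fold higher (1.28 to 2.63) labelled sham. Within the library labelled UUO it was thus 2.92-fold higher (1.95 to 4.45) in cells with Xist only, and within the library labelled sham 1.27-fold higher (1.16 to 1.41). The value labelled UUO rested on 87 UMIs in 45 of 209 cells with Xist only, 33.3% of them in 5 cells, and on 35 UMIs in 28 of 218 cells with Y-linked UMIs only. A step added after the values were seen left out the 5 cells with the most Plod2 UMIs in each group of cells. Plod2 with Xist only was then at 49.4 CPM labelled sham and 44.3 CPM labelled UUO, without an interval. This step took out 2.20% of its UMIs labelled sham but 33.3% of those labelled UUO, where cells are fewer. It thus lowers the UUO side more by construction, and no direction is read from it. P4ha2 was 1.06-fold (0.833 to 1.33) labelled UUO over sham in the first kind, an interval that holds 1, and 0.711-fold (0.550 to 0.905) in the second.

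**Figure D5:**
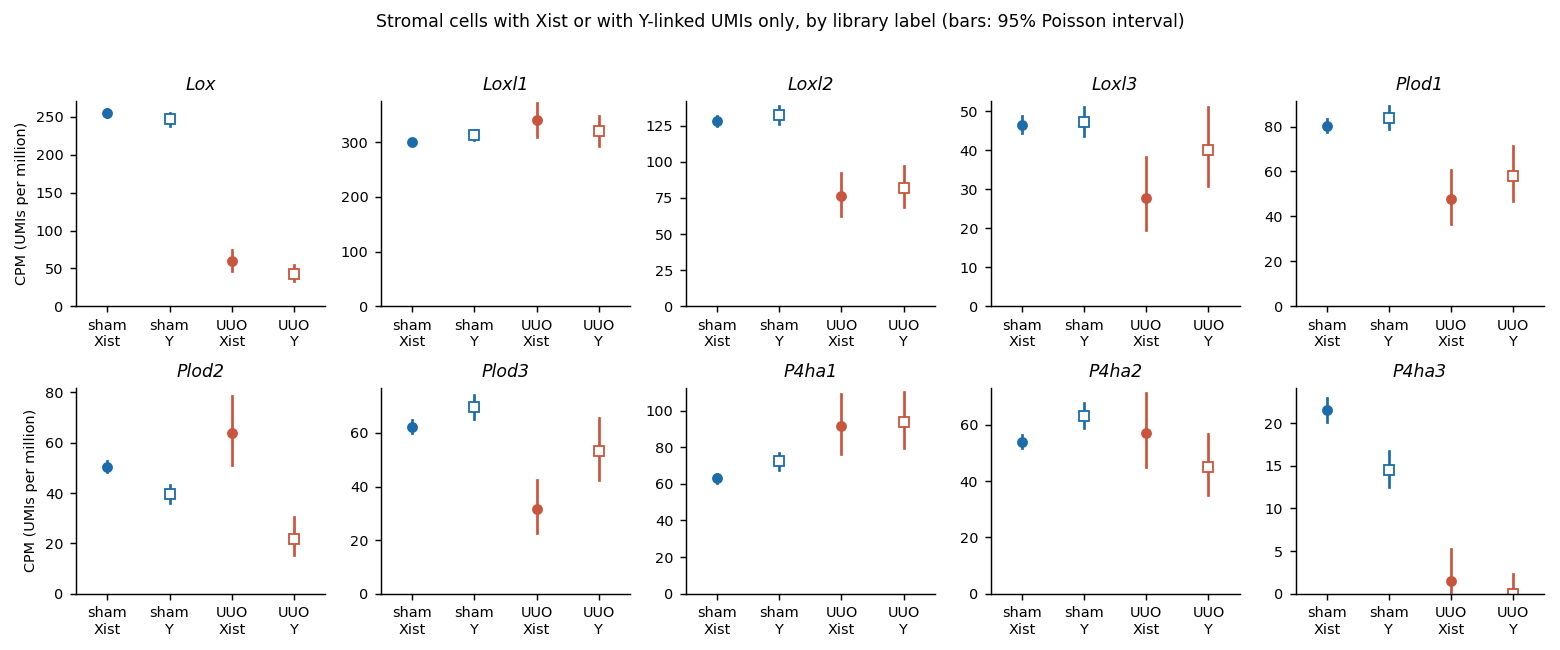
Level of each enzyme (CPM, linear axis from 0) in stromal cells with Xist UMIs only (filled circles) or Y-linked UMIs only (open squares), blue for the library labelled sham and red for the library labelled UUO, with 95% Poisson counting intervals. Lox is high in both kinds of cell labelled sham, and Plod2 labelled UUO reads 63.7 and 21.9.

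Other genes of collagen making and crosslinking set these values in context. The lists were written with earlier results of these data known, and their counts are descriptions. Of the fibrillar collagens, 7 of 11 genes had 10 CPM or more, and their median log2 ratio was -0.92. With 5 CPM added, 2 of the 7 passed 2-fold toward sham, against 4.56% of all genes. None passed toward UUO, against 12.5%. Col5a2, a chain of the collagen V that nucleates fibrils, fell furthest apart at 356 CPM labelled sham and 68.5 CPM labelled UUO. Col3a1 had 3710 and 1785 CPM, and Col1a1 2422 and 1455 CPM. Col5a3 was the reverse at 8.39 and 21.01 CPM.

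Among 18 measured genes of other collagen biosynthesis steps, 2 were at least 2-fold higher labelled sham, against 4.56% of all genes. Labelled UUO, 1 was as much higher, against 12.5%. Bmp1, the protease that removes the C-propeptide of procollagen and also activates pro-lysyl oxidase, had 205 and 67.8 CPM. Fkbp10, a chaperone needed for telopeptide lysyl hydroxylation, had 155 and 73.7 CPM. Pcolce, an enhancer of the C-proteinase, had 971 and 1328 CPM, and its relative Pcolce2 had 7.94 CPM labelled sham and 230 CPM labelled UUO, 28.9-fold (26.1 to 32.1). P4hb, the other subunit of prolyl 4-hydroxylase, had 195 and 102 CPM. Across collagen bins labelled sham, 8 of these 18 genes were at least 1.5-fold higher in the top bin, against 5.41% of all genes, and none was as much lower, against 2.89%. Across bins labelled UUO, 10 of 18 were as much higher, against 12.4%, and 2 as much lower, P3h2 and Tmem38b, against 26.5%.

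Among 9 partners and activators of crosslinking, 3 were at least 2-fold higher labelled sham, against 4.56% of all genes. Labelled UUO, 2 were as much higher, against 12.5%. Fn1, fibronectin, which binds lysyl oxidase and its activating protease, had 846 CPM labelled sham and 286 CPM labelled UUO, and Pxdn, the peroxidase that makes sulfilimine bonds in collagen IV, had 57.6 and 19.9 CPM. Fbln5, fibulin-5, which tethers Loxl1 to elastic fibres, had 549 and 1832 CPM, 3.34-fold higher (3.26 to 3.42) labelled UUO. Fmod, fibromodulin, which steers lysyl oxidase to collagen, had 8.74 and 89.1 CPM, 10.2-fold higher (8.98 to 11.6) labelled UUO.

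No measured gene of the uptake and breakdown list or of the supply list passed 2-fold with 5 CPM added, against 17% of all genes. Of 6 genes of collagen uptake and breakdown, Mmp14, a membrane collagenase, had 270 and 135 CPM, Ctsk, cathepsin K, 299 and 162 CPM, Fap 11.6 and 18.2 CPM, and Pepd, which frees proline from dipeptides, 49.4 and 46.6 CPM. Of 3 measured genes of copper, iron and ascorbate supply, the copper importer Slc31a1 had 66.3 and 35.0 CPM, the copper chaperone Atox1 313 and 244 CPM, and Slc2a1 19.1 and 15.5 CPM. Of 7 measured hypoxia genes, 2 were at least 2-fold higher labelled UUO, against 12.5% of all genes. These were Ndrg1 at 41.5 and 88.6 CPM and Vegfa at 12.3 and 31.5 CPM. None was as much higher labelled sham, against 4.56%. Ldha, at 618 and 372 CPM, and Hif1a, at 62.4 and 36.8 CPM, were lower labelled UUO.

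The genes most like each member were sought by Pearson correlation of log2 levels over 11 sums of cells (7 classes labelled sham and 4 labelled UUO) among 11157 genes, as a description without a p. Lox was most like Col15a1 (r = 0.98), Mfap2 (0.96) and Spon1 (0.95), and its r with Col1a1 was 0.92. Loxl1 was most like Gm13302 and Gm13303 (0.98 each). Loxl2 was most like Sspn (0.97), Rem1 (0.96) and Des (0.95), and it went with Plod3 at 0.94. Loxl3 was nearest to Sned1, Gm16141 and Epdr1 (0.95 each). Plod1 was nearest to Fscn1, Zfp57 and Kctd12b (0.92 each), Plod2 to Calcoco1 (0.88), Ado (0.86) and Ntm (0.84), and Plod3 to Fkbp7 (0.96), Lix1l and Ttc28 (0.95 each). P4ha1 was nearest to Gdf10 (0.92), Srpr (0.90) and Tpst1 (0.89) and had an r of 0.18 with Col1a1, and P4ha2 was nearest to Fhl1 (0.91), Gm6133 (0.89) and Fads1 (0.87). P4ha3 was under 20 CPM in every sum and was not ranked. The sums share libraries, and their depths differ widely.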

How the data were processed

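Single-cell RNA was read from 2 libraries, 1 per label. The authors deposited expected counts of UMIs for each gene in each cell, not normalised, made with alevin of Salmon 0.13.1 on mm10, per the submitters' processing notes. Alevin splits UMIs that match several genes, and 92.4% (labelled sham) and 91.4% (labelled UUO) of nonzero values were whole within 0.001. Which filter on barcodes preceded deposit: not given in the sources used here. By identifier and version 52806 gene entries match GENCODE M21, 9 of the 10 members among them.

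Cells were kept from 500 UMIs and 300 genes upward, with mitochondrial UMIs of 20% or less. A cell joined a class with at least 3 of its markers detected and at least 0.1% (fibroblast) or 0.4% (other classes) of its UMIs from them. These shares were set after the data had been seen, and 223 and 2 fibroblasts lay under 0.125%. Below the cut, 908 and 125 unassigned cells held at least 0.075%. Cells meeting 2 classes (52 and 22) were left out in place of a doublet caller. Counts were summed over cells and rounded, and given as CPM with exact Poisson intervals. Ratios carry conditional binomial and shares Clopper-Pearson intervals, at 95%. Folds are unadjusted, and counts of genes apart use 5 CPM added. The calculations were tested on simulated data. Python 3.11.15, numpy 2.4.6, scipy 1.17.1, pandas 2.3.3 and matplotlib 3.10.9 were used. Members, lists and marker sets were chosen with earlier results of these data known. The 10 members are always named; of each other list the 2 genes at either end of the log2 ratios, from 10 CPM upward, are named, and for each member the 3 genes most like it, of which 1 for Loxl1 is not reported here. P4hb, P3h2 and Tmem38b were named after their values were seen.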

Additional observations from a re-analysis of the deposited data

Results flagged for a closer look

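Plod2, the telopeptide lysyl hydroxylase, stood on opposite sides between the libraries in the 2 kinds of stromal cell told apart by sex-linked transcripts. Its level labelled UUO was 1.27-fold (1.01 to 1.57) of that labelled sham in cells with Xist UMIs only and 0.553-fold (0.381 to 0.779) in cells with Y-linked UMIs only. The difference between these ratios was not tested, since each label has 1 library. A step added after the values were seen left out the 5 cells with the most Plod2 UMIs in each group of cells. With Xist only it gave 49.4 CPM labelled sham and 44.3 CPM labelled UUO, without an interval. With Y-linked UMIs only it gave 35.5 and 14.9 CPM, also without an interval. In both kinds of cell the step took out a larger share of the Plod2 UMIs labelled UUO, where cells are fewer. It thus lowers the UUO side more by construction, and no direction is read from it. In the cells with Y-linked UMIs labelled sham, 1 cell held 35 of 511 Plod2 UMIs.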

How the results depend on the processing

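No paired analysis was possible because each label has 1 library. Lox stayed higher in the library labelled sham under all 16 alternatives, 1 of them added after the data had been seen (log2 -2.39 to -1.74), and P4ha3 did too (-3.61 to -0.93). With 20 CPM added in place of 5, P4ha3 came to -0.93 and the count of members at least 2-fold apart was 1 in place of 2, a step that shrinks low genes by construction. Without a filter on low values 6.69% of all genes were 2-fold apart in place of 17%. Plod2 changed sign in cells with Xist only (0.31), and P4ha2 did too (0.07). With cells thinned to 1000 UMIs the log2 ratios of Plod1, Plod2 and Plod3 were -0.15, -0.70 and -0.49. Plod1 was then seen in 52 stromal cells labelled UUO. With equal weight for each cell the 3 values were -0.45, -0.62 and -0.58, against -0.51, -0.33 and -0.42 in the main setting. Their similar factors thus depended on the setting, and the cause was not tested. With cells thinned to 1000 UMIs P4ha1 came to 0.15 in place of 0.36, and P4ha2 to -0.37 in place of -0.17. The log2 ratio of members per collagen UMI was 0.50 in the main setting and 0.58 over all retained cells. It was 0.68 with equal weight for each cell and 0.69 after thinning, and the cause was not tested. Over 15 alternatives it ran from 0.46 to 0.69. Those that change only the CPM total, the scaling or the CPM added leave this ratio unchanged by construction. In 3 bins of collagen 1 member passed in the library labelled UUO in place of 2, and 5 in the library labelled sham in place of 7. Thinning turned Plod1 (0.32), Plod2 (0.46) and Plod3 (-0.18) across collagen bins labelled UUO. Median-of-ratios scaling moved every log2 ratio by 0.06. The 733 stromal cells labelled UUO and the 3 UMIs of P4ha3 limit the precision, and between-animal variation cannot be seen.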
